A study of Rattus norvegicus with 24 samples.

Results

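Cultured neonatal rat ventricular myocytes, the beating heart muscle cells of newborn Sprague-Dawley rats, received a mimic of miR-455-3p or a negative control mimic and were then exposed to doxorubicin. The effect of miR-455 under the drug was read from 6 of the 24 libraries of the series, 3 with the miR-455 mimic and 3 with the control mimic, over every gene in the table. All 6 libraries carry the drug, so the comparison holds no untreated cells. Mimics were transfected at 5 nM, doxorubicin followed after 48 h and was left on for 24 h, and polyA RNA was then sequenced. The drug dose is written as 4 uM in the sample protocol but as 4 mM in the series text. The arm of the mimic, 3p, is that of the series text; the sample protocol spells it miR-455-ep, and the sequence and the target list used below rest on the 3p arm. Where other groups are used below, they are the same mimics without doxorubicin, a miR-222-3p mimic with doxorubicin, and both mimics with doxorubicin at 5 nM each, also with 3 libraries a group. No label ties the replicates to separate animals or cultures. The p-values therefore cover only how far libraries spread within groups, pooled over all 24, and that spread may be technical.

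MicroRNAs are short RNAs that, loaded on an Argonaute protein, pair with messenger RNAs mainly through bases near their 5′ end, the seed, and lower the stability and translation of those messages. A mimic is a synthetic duplex that loads the chosen strand in excess, so messages with fitting sites fall directly and other genes can follow indirectly in either direction. Doxorubicin is an anthracycline used against cancer that poisons topoisomerase II, damages DNA and mitochondria, and injures heart muscle. The series set out to learn whether miR-222 and miR-455 protect heart muscle cells from it.

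The mature sequences of both microRNAs show that their seeds differ, which matters because the 2 mimics are set side by side below. They are the rat sequences of RefSeq, build GRCr8, and both names matched 1 entry each among 724 mature rat microRNAs. The capitals mark the seed, bases 2 to 8 from the 5′ end.
rno-miR-455-3p: gCAGUCCAcgggcauauacacu
rno-miR-222-3p: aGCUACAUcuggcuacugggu
The seeds agree at 1 of 7 positions. No other mature rat microRNA in the table carries the miR-455-3p seed, and 1 other, rno-miR-221-3p, carries that of miR-222-3p. A message pairs with the miR-455-3p seed through UGGACUG. The 78-base hairpin lies on the plus strand at chr5:81704834-81704911, inside the span of the collagen gene Col27a1, and the mature strand, in capitals, takes up chr5:81704881-81704902.
Mir455 hairpin: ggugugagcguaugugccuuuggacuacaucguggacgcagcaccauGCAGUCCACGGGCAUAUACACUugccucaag
Col27a1 itself stood at 35.1, 34.5 and 39.6 CPM with miR-455 and at 3.43, 48.7 and 36.1 CPM with the control mimic, a log2 fold change of 0.30 ± 0.70 that did not pass the test (edgeR adjusted p = 0.934). The level of the mature microRNA was not analysed here, so no value shows directly how much mimic the cells took up. Matches to the seed in 3′ UTRs were not analysed here either.

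The 6 libraries held 17311949 to 24175043 counts. The 3 miR-455 libraries were far more alike than the 3 control libraries. The median gene had an SD of 0.144 on the log2 CPM scale (CPM are counts scaled to library size, here by TMM) among the miR-455 libraries and of 0.585 among the controls. Comparing the counts of 2 libraries gave a chi-square per degree of freedom of 7.81 to 9.79 with miR-455, above sampling noise, and 125 to 562 with the control mimic. Control replicate 1 stood apart: 38.2% of its counts came from mitochondrially encoded genes, against 8.83% and 16.0% in the other controls and 14.6% ± 0.882 (SD, n = 3) with miR-455, and 11469 genes had at least 10 counts, against 13051 to 13524. Without it the median SD of the controls was 0.224, over 2 libraries, which is not a like comparison with an SD over 3. Control replicates 2 and 3 still gave a chi-square per degree of freedom of 125. For named genes called with control replicate 1 but not without it, the adjusted p without it is given, alone or as a range. The part of that library in the remaining differences was not tested.

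Under doxorubicin the miR-455 mimic lowered far more genes than it raised. Of 14303 genes tested, 358 (2.5%) passed an adjusted p of 0.05 by the edgeR quasi-likelihood test with Benjamini-Hochberg adjustment, and these are the genes called below. The mimic group was lower for 264 of them (1.85% of the genes tested) and higher for 94 (0.657%). The median size was 1.40 on the log2 scale among the lowered genes and 1.30 among the raised, and 211 and 64 of them moved at least 2-fold. The libraries of both groups did not overlap for 263 of the 264 lowered and all 94 raised genes, beside 3800 of all genes tested (26.6%). Without control replicate 1 the test called 246 genes, 180 lower and 66 higher; 214 of the 358 were among them, and all 358 kept their sign. Without miR-455 replicate 1, 2 or 3 it called 152, 146 and 145, again with all 358 signs kept.

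**Figure D1:**
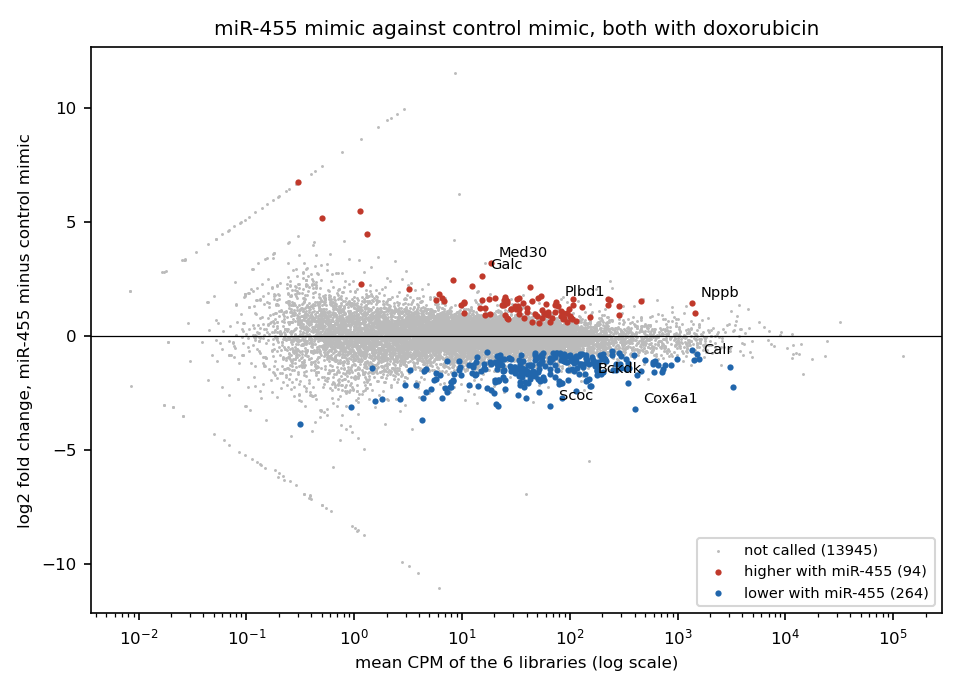
Each point is 1 of 14303 genes, with the mean CPM of the 6 libraries on a log axis and the log2 fold change of miR-455 against the control mimic, both with doxorubicin. The 264 lower genes (blue) outnumber the 94 higher genes (red), and the points with the largest log2 fold changes (grey) were not called.

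The gene with the smallest p was Bckdk, the kinase that switches off the branched-chain ketoacid dehydrogenase and so restrains the breakdown of leucine, isoleucine and valine. Bckdk stood at 66.8, 64.8 and 62.3 CPM with miR-455 and at 237, 238 and 241 CPM with the control mimic. Within each group the 3 values nearly coincide, and the groups are far apart. The log2 fold change was -1.88 ± 0.14 (SE; edgeR adjusted p = 2.12e-07), and without control replicate 1 it was -1.88. Ppm1k, the phosphatase that opposes Bckdk, fell too (-1.54 ± 0.36, edgeR adjusted p = 0.0209), while Bckdhb, a subunit of the dehydrogenase, rose (0.84 ± 0.20, edgeR adjusted p = 0.0256). Neither passed without control replicate 1 (-1.47 and 0.90, edgeR adjusted p = 0.0683 and 0.0543). These are the 3 called among 23 tested genes of branched-chain amino acid breakdown, 2 lower and 1 higher, a family chosen after the values were seen. Over all genes tested 2.5% were called. The family median log2 fold change was -0.19, beside 0.02 over all genes tested.

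Lysosomal genes supplied 2 more of the 5 lowered genes with the smallest p. Gm2a, the activator protein that presents ganglioside GM2 to its hydrolase, stood at 34.2, 31.5 and 29.6 CPM with miR-455 and at 148, 128 and 122 CPM with the control mimic (-2.06 ± 0.18, edgeR adjusted p = 1.31e-06). Glb1, lysosomal beta-galactosidase, stood at 37.8, 43.0 and 39.6 CPM against 127, 192 and 143 CPM (-1.94 ± 0.21, edgeR adjusted p = 5.05e-05). For both genes every mimic library lay below every control library, by a wide gap. In a family of 47 lysosomal enzymes, activators, sorting receptors and membrane proteins, chosen after the values were seen, 6 fell and 3 rose, with a median log2 fold change of -0.24. The other 4 that fell were Sort1, a sorting receptor (-2.21 ± 0.27), the protease Ctsh (-1.19 ± 0.16), the membrane protein Scarb2 (-1.10 ± 0.22) and the sulfatase Ids (-1.09 ± 0.28). Those that rose were Plbd1, Galc and Npc1, a lysosomal cholesterol exporter (0.63 ± 0.15; 0.61 with edgeR adjusted p = 0.0824 without control replicate 1). The change was therefore not of 1 direction across lysosomal genes. For comparison, 1.85% of all genes tested were called lower and 0.657% higher, with a median of 0.02.

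Of the other 2 lowered genes with the smallest p, Spop, the adaptor that brings substrates to the CUL3 ubiquitin ligase, stood at 22.3, 21.6 and 21.0 CPM with miR-455 and at 88.2, 58.6 and 73.4 CPM with the control mimic (-1.76 ± 0.19, edgeR adjusted p = 3.97e-05). Fbxw2, a substrate receptor of another ubiquitin ligase, stood at 19.0, 21.3 and 21.4 CPM against 65.9, 57.5 and 57.7 CPM (-1.55 ± 0.18, edgeR adjusted p = 6.75e-05). In both genes the control libraries are all higher, with Spop the more scattered among them.

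The steepest falls, among genes with a symbol, a mean of 5 CPM or more in 1 group and groups that do not overlap, began with Cox6a1, a subunit of cytochrome c oxidase. Cox6a1 stood at 68.9, 82.5 and 82.6 CPM with miR-455 and at 452, 596 and 1132 CPM with the control mimic (-3.22 ± 0.48, edgeR adjusted p = 0.000605). Its control libraries are scattered, but the lowest of them is far above every mimic library. Scoc, a Golgi coiled-coil protein, followed at 13.5, 12.8 and 15.6 CPM against 181, 94.8 and 79.4 CPM (-3.08 ± 0.38, edgeR adjusted p = 0.000117). Sqor, the mitochondrial enzyme that oxidises hydrogen sulfide, stood at 6.31, 7.38 and 4.30 CPM against 34.0, 42.0 and 26.2 CPM (-2.50 ± 0.30, edgeR adjusted p = 0.000117). The remaining 12 of the 15 steepest were Ampd3 (-3.08), Gca (-2.99), Sh3bgrl (-2.73), Mlf1 (-2.72), Lrrc2 (-2.72), the endothelial receptor Kdr (-2.72), Asb4 (-2.61), the sodium channel Scn1a (-2.47), Cux2 (-2.46), Cpne3 (-2.45), the growth factor Ptn (-2.43) and Prune2 (-2.37). Of these, Sh3bgrl, Mlf1, Lrrc2, Kdr, Asb4, Scn1a, Ptn and Prune2 did not pass the test without control replicate 1, with log2 fold changes of -2.21, -2.03, -2.20, -2.05, -2.25, -2.44, -2.41 and -2.05 and edgeR adjusted p between 0.0714 and 0.212.

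Messages reported elsewhere as miR-455-3p targets held 3 called genes, as did the respiratory chain list, and no other of the 33 lists examined held more. Of 17 tested, 3 fell and 0 rose, 13 had a log2 fold change below 0, and the median was -0.60. Over all genes tested 1.85% were called lower and 0.657% higher, 6908 of 14303 were below 0, and the median was 0.02. With miR-455 in cells without the drug, the median of the 17 was -0.49, with 1 called lower and 0 higher. For miR-455 added to miR-222 under the drug it was 0.0038, with 0 called. The medians over all genes tested were 0.06 and -0.05 there. Epas1, which encodes the hypoxia-inducible factor HIF-2α, stood at 10.2, 10.0 and 11.0 CPM with miR-455 and at 48.7, 33.2 and 36.1 CPM with the control mimic (-1.92 ± 0.39, edgeR adjusted p = 0.00788). Calr, the calcium-binding chaperone calreticulin of the endoplasmic reticulum, stood at 937, 916 and 931 CPM against 1667, 2636 and 1518 CPM (-1.06 ± 0.24, edgeR adjusted p = 0.0168). Ei24, an endoplasmic reticulum protein needed for autophagy, stood at 85.2, 92.2 and 78.1 CPM against 179, 155 and 142 CPM (-0.89 ± 0.17, edgeR adjusted p = 0.00464). In all 3 genes the groups did not overlap, and all 3 passed the test without control replicate 1 as well. Of the 14 targets that did not pass, App (-0.60 ± 0.18, edgeR adjusted p = 0.112) and the ubiquitin-conjugating enzyme Ube2b (-0.77 ± 0.24, edgeR adjusted p = 0.122) came nearest. The histone deacetylase Hdac2 (-0.94 ± 0.44), the SMAD protein Smad2 (-0.46 ± 0.31), Hif1an (-0.58 ± 0.28), Ndn (-0.60 ± 0.46), Acvr2b (-1.14 ± 1.13), Chrdl1 (-0.69 ± 0.70), Cpeb1 (-0.61 ± 0.74) and Runx1t1 (-0.12 ± 0.39) also had values below 0, with Runx1t1 above 0 without control replicate 1 (0.28). Pak2 (0.44 ± 0.21), Mmp9 (0.35 ± 1.13), Tlr4 (0.30 ± 0.65) and Hdac8 (0.03 ± 0.29) had values above 0; Mmp9 was below 0 without control replicate 1 (-0.20).

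Of the 33 lists together, 625 distinct genes were tested and 25 were called, 7 higher and 18 lower, in most lists 0 or 1 of the members. The share called over all genes tested was 2.5%. Among p53 targets 1 of 28 was called: Perp, a p53-induced membrane protein of desmosomes, stood at 32.0, 33.1 and 33.2 CPM with miR-455 and at 156, 151 and 103 CPM with the control mimic and fell (-2.06 ± 0.26, edgeR adjusted p = 0.000139). The median of the p53 list was 0.02. The cell cycle inhibitor Cdkn1a (-0.04 ± 0.57) and the p53 antagonist Mdm2 (-0.38 ± 0.44) did not pass. Of 19 apoptosis regulators 1 was called, Diablo, the mitochondrial protein that antagonises inhibitors of apoptosis, which rose (0.97 ± 0.19, edgeR adjusted p = 0.00652), with a list median of 0.25. None of 23 DNA repair genes (median 0.02), 28 cell cycle genes (-0.31), 28 interferon-stimulated genes (0.28), 15 genes of the microRNA machinery (0.14), 15 heat shock genes (-0.16) or 21 immediate early genes (0.36) passed. Over all genes tested 1676 had an unadjusted p under 0.05.

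Few genes of the heart muscle programme were called. Among 21 sarcomere genes (median -0.10) only Myom1, a protein of the M-band, was called, at 59.2, 58.0 and 55.1 CPM against 365, 199.7 and 217 CPM (-2.18 ± 0.45, edgeR adjusted p = 0.00959). Of 23 genes of calcium handling and ion channels 18 had a value below 0 (median -0.53, and -0.49 without control replicate 1). Over all genes tested 6908 of 14303 were below 0, with a median of 0.02. The 1 called was Kcnh2, the channel of the rapid delayed rectifier current. Kcnh2 fell from 10.4, 26.1 and 20.3 CPM to 4.77, 4.04 and 4.13 CPM (-2.14 ± 0.45, edgeR adjusted p = 0.0111). Nppb, which encodes the stress hormone BNP, stood at 2126, 2138 and 1732 CPM with miR-455 and at 561, 1045 and 613 CPM with the control mimic and rose (1.43 ± 0.37, edgeR adjusted p = 0.0420); without control replicate 1 its adjusted p was 0.202. Fhl1, a LIM protein of stressed muscle, fell (-1.29 ± 0.32, edgeR adjusted p = 0.0321; 0.0952 without that library). These were the 2 called of 13 cardiac stress genes, whose median was 0.25. Nppa, the atrial hormone, stood at 37395, 40701 and 38839.9 CPM against 19769, 24763 and 31704 CPM and did not pass (0.62 ± 0.47), nor did the myosin heavy chains Myh6 (-0.17 ± 0.36) and Myh7 (-0.64 ± 0.51) or any of 17 cardiac transcription factors (median -0.00091).

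**Figure D2:**
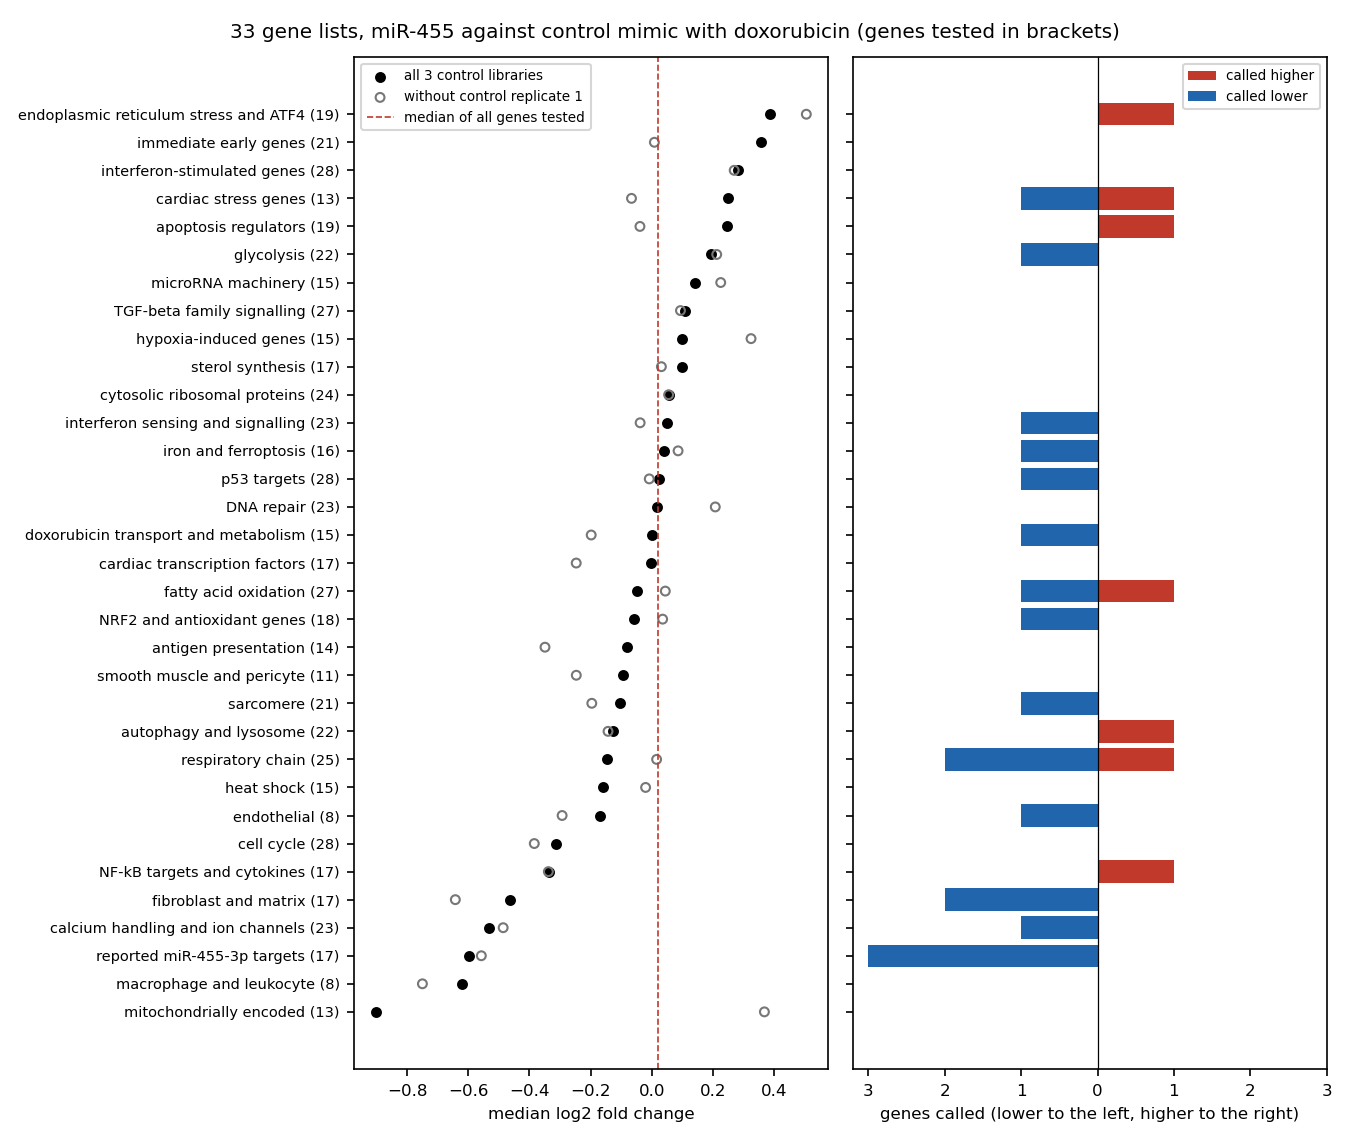
For each of 33 gene lists the left panel plots the median log2 fold change with all 3 control libraries (filled) and without control replicate 1 (open), and the right panel the number of genes called in each direction. Reported miR-455-3p targets have 3 calls, all lower, the respiratory chain list has 3 in both directions, and the mitochondrially encoded genes move from -0.90 to 0.37 when that library is left out.

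Metabolic lists held few calls in both directions. Among 25 nuclear respiratory chain genes (median -0.14) Ndufv2, a complex I subunit, rose (1.29 ± 0.30, edgeR adjusted p = 0.0194), while Sdha of complex II (-0.80 ± 0.17) and Ndufs3 of complex I (-1.10 ± 0.26) fell. Without control replicate 1 Sdha and Ndufs3 did not pass (edgeR adjusted p = 0.0650 and 0.178). Among 27 genes of fatty acid oxidation (median -0.05) the thiolase Acaa2 rose (1.55 ± 0.33, edgeR adjusted p = 0.0123) and the dehydrogenase Acadl fell (-0.62 ± 0.16, edgeR adjusted p = 0.0422; 0.181 without that library). Slc16a1, the lactate and pyruvate carrier MCT1 and the 1 gene called of 22 in the glycolysis list (median 0.19), stood at 56.1, 51.9 and 60.3 CPM with miR-455 and at 118, 223 and 153 CPM with the control mimic (-1.55 ± 0.26, edgeR adjusted p = 0.00134). Mthfd2, a mitochondrial folate enzyme and ATF4 target, was the 1 called of 19 genes of endoplasmic reticulum stress and ATF4 and rose (1.04 ± 0.23, edgeR adjusted p = 0.0174), with a list median of 0.39. The 13 mitochondrially encoded genes had a median of -0.90 and 0 calls; that median was 0.37 without control replicate 1, the library rich in those transcripts.

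Single members of the remaining lists were called. Lpcat3, which puts polyunsaturated fatty acids into phospholipids, fell from 89.2, 90.0 and 90.4 CPM to 42.6, 40.9 and 38.5 CPM (-1.14 ± 0.20, edgeR adjusted p = 0.00264), 1 of 16 in the iron and ferroptosis list (median 0.04). Akr1a1, an aldehyde reductase, fell (-0.86 ± 0.22, edgeR adjusted p = 0.0333), 1 of 15 genes of doxorubicin transport and metabolism (median 0.00050). The antioxidant thioredoxin Txn1 fell (-0.88 ± 0.21), 1 of 18 in its list (median -0.06), and the cytokine-receptor kinase Jak1 fell (-0.83 ± 0.21), 1 of 23 in interferon sensing (median 0.05); neither passed without control replicate 1 (edgeR adjusted p = 0.154 and 0.174). The chemokine Ccl20, 1 of 17 NF-kB targets and cytokines (median -0.34), was counted 130 times over the 3 miR-455 libraries and 2 times over the controls. Its ratio of 50.9 has a 95% exact counting interval of 13.8 to 425, and without control replicate 1 its edgeR adjusted p was 0.0586. The autophagy and lysosome list had Npc1 as its 1 call of 22 (median -0.13). The antigen presentation (14 genes, median -0.08), hypoxia (15, 0.10), sterol synthesis (17, 0.10), TGF-beta (27, 0.11) and cytosolic ribosomal protein (24, 0.06) lists had 0.

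Markers of the cell types that such cultures can hold were compared in the same 6 libraries. The 9 cardiomyocyte markers in the table summed to 70535 to 74391 CPM with miR-455 and 55667 to 60820 CPM with the control mimic, and 0 of 9 were called. Nppa, whose CPM given above were higher in every miR-455 library, is 1 of the 9 and a large part of these sums. The sums were not computed without it. The 8 fibroblast markers summed to 29201 to 30717 against 23168 to 52858 CPM, with 1 lower, and the 6 smooth muscle and pericyte markers to 1463 to 1901 against 1822 to 4234 CPM. Endothelial markers (5) were at 27.1 to 29.0 against 29.2 to 38.6 CPM, with Kdr lower, and macrophage and leukocyte markers (7) at 2.45 to 3.09 against 1.72 to 6.29 CPM. No marker was at 0 in all 6 libraries. In bulk libraries fewer cells of a type and less RNA per cell cannot be told apart, and the part these markers have in the results was not tested. Among 17 fibroblast and matrix genes, whose median was -0.46, the proteoglycan decorin, Dcn, stood at 94.7, 93.8 and 84.1 CPM with miR-455 and at 204, 252 and 184 CPM with the control mimic (-1.23 ± 0.25, edgeR adjusted p = 0.00861). Col6a1, a chain of collagen VI, fell as well (-1.27 ± 0.28, edgeR adjusted p = 0.0145). The lists of smooth muscle (11 tested, median -0.09) and macrophage genes (8 tested, median -0.62) had 0 calls, and that of endothelial genes (8 tested, median -0.17) had Kdr. In a family chosen after the values were seen, 3 of 6 collagen IV chains of basement membranes fell: Col4a3 (-1.13 ± 0.28), Col4a4 (-1.47 ± 0.19) and Col4a5 (-1.09 ± 0.28). The major chains Col4a1 (0.20 ± 0.34) and Col4a2 (0.29 ± 0.67) did not pass. Of all genes tested 1.85% were called lower.

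Raised genes were fewer, and several serve mitochondria. Within the limits set above for the steepest falls, the largest rise was that of Med30, a subunit of the Mediator complex of transcription, at 34.7, 32.5 and 32.8 CPM with miR-455 and 5.85, 2.42 and 2.74 CPM with the control mimic (3.20 ± 0.44, edgeR adjusted p = 0.000255). Galc, the lysosomal galactosylceramidase, followed at 27.3, 28.1 and 24.4 CPM against 1.01, 6.24 and 5.22 CPM (2.65 ± 0.41, edgeR adjusted p = 0.000741). In both, the mimic libraries lie close together and far above the highest control. Plbd1, a lysosomal phospholipase B-like protein, had the smallest p among the raised genes, at 114, 110.4 and 109 CPM against 41.7, 38.5 and 37.8 CPM (1.50 ± 0.18, edgeR adjusted p = 0.000117). The other raised genes of small p were Erlin2 of the endoplasmic reticulum (1.37 ± 0.18), the ubiquitin ligase March8 (1.30 ± 0.19) and Nudt21, a subunit of the factor that sets the 3′ cleavage site of messages (1.43 ± 0.21). Among the 15 largest rises were also Rab3b (2.46), Chchd6 of the mitochondrial inner membrane (2.17), the tautomerase Ddt (2.17), Scml2 (2.07), Agpat5 (1.72), Dnph1 (1.67), the RUNX partner Cbfb (1.67), Lmf1 (1.65) and Wrb (1.65), all called without control replicate 1 too.

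The rest of those 15 are mitochondrial, and families chosen after seeing them were counted. For comparison, 0.657% of all genes tested were called higher and 1.85% lower, with a median of 0.02. As the families were picked for their called members, their counts are a description only. Of 75 mitochondrial ribosomal proteins 6 rose and 0 fell (median 0.23), among them Mrpl57 (1.56 ± 0.24), Mrps30 (0.99 ± 0.15) and Mrpl10 (1.75 ± 0.36). Of 15 inner membrane import proteins 3 rose, Timm22 (1.22 ± 0.24), Pam16 (1.63 ± 0.33) and Timm8a1 (1.62 ± 0.37), and 0 fell (median 0.46). Of 45 complex I subunits and assembly factors 4 rose, led by Ndufb9 (1.63 ± 0.31), and 2 fell (median 0.30). Without control replicate 1 the raised members numbered 4, 3 and 2. The first 2 of these counts include members that were not called with all 3 control libraries. Of the raised genes counted above, Mrpl57, Mrps30, Mrps33, Timm22 and Pam16 still passed in these 2 families. Mrpl10, Mrpl53, Mrpl48 and Timm8a1 did not (edgeR adjusted p = 0.0557, 0.103, 0.172 and 0.0970). Of 20 cytosolic aminoacyl-tRNA synthetases 3 rose, Mars (0.86 ± 0.19), Iars (0.80 ± 0.20) and Eprs (0.90 ± 0.24), and 0 fell (median 0.43). Of 21 genes of GPI anchor synthesis 3 fell, Pigq (-1.95 ± 0.40), Pigx (-0.90 ± 0.20) and Pigt (-0.75 ± 0.18), and 0 rose (median 0.02). Without control replicate 1 each of these families kept 2 calls, and Mars and Pigt did not pass (0.87 and -0.68, edgeR adjusted p = 0.0541 and 0.0934).

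**Figure D3:**
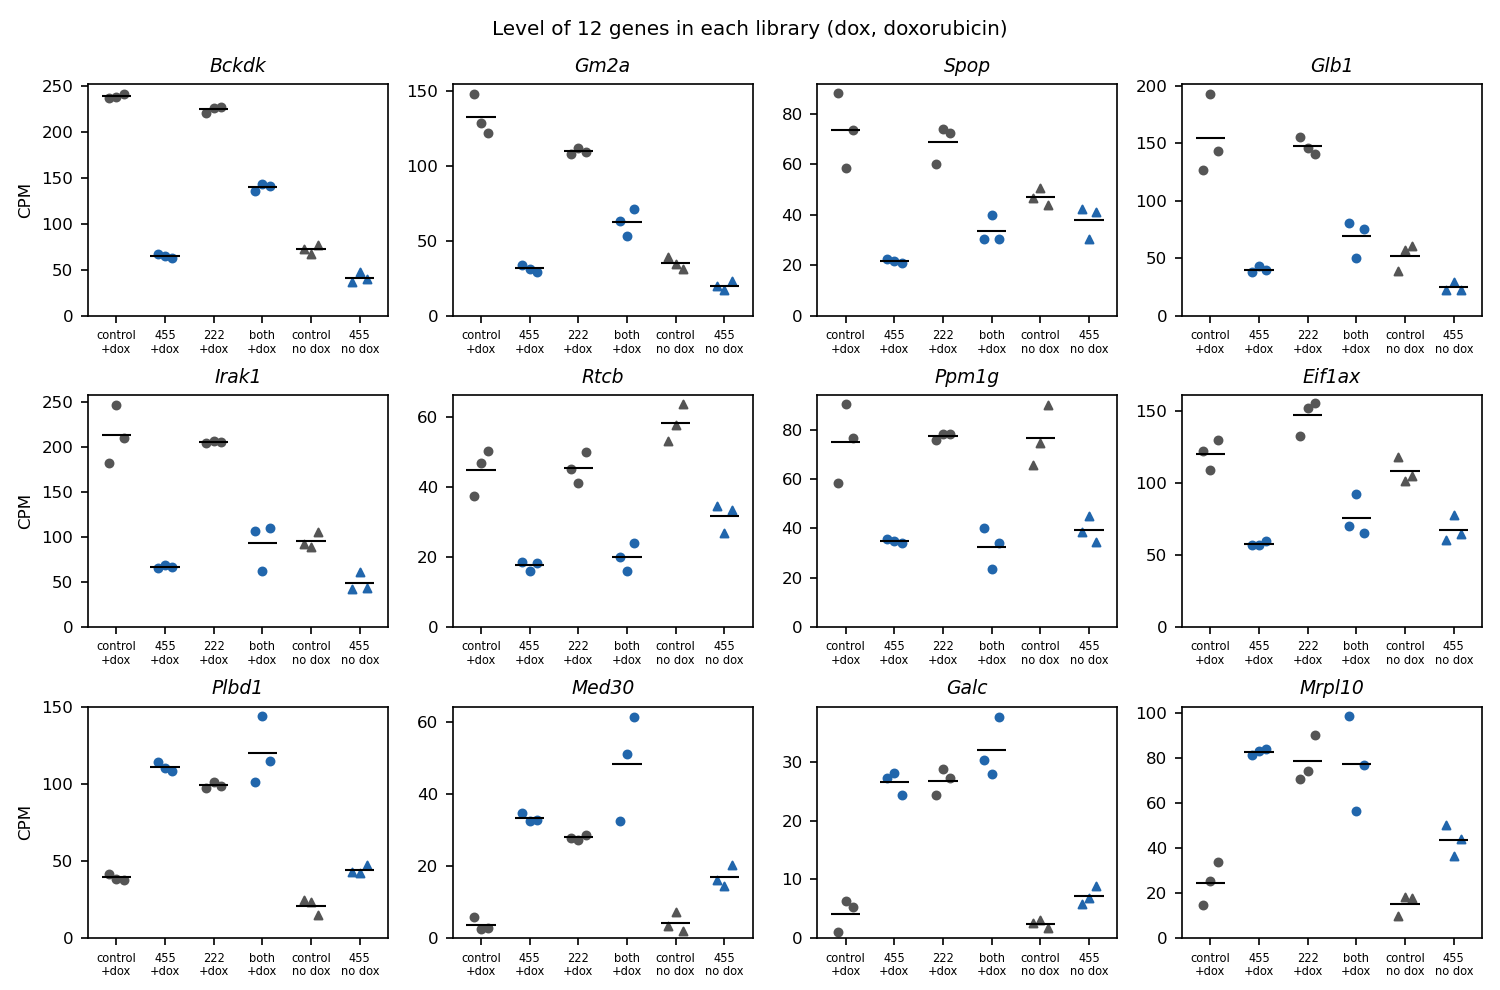
Panels give the CPM of 12 genes in each library of 6 groups (points; circles with doxorubicin, triangles without; blue where miR-455 was given), with the group mean as a bar, on axes that start at 0. In the first 8 genes every library with miR-455 alone under the drug lies below every library with the control mimic or miR-222 under the drug, while in Plbd1, Med30, Galc and Mrpl10 the miR-222 libraries lie far above the controls, near those of miR-455.

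A miR-222 mimic under the same drug shows which of these values were shared by another mimic with another seed. With it 565 genes (3.95%) were called against the control mimic, and 511 (3.57%) differed between the mimics. Both mimics are measured against the same 3 control libraries, so a deviation of those controls enters both alike, and the values are only set side by side; the direct difference between the mimics, a comparison added after the data were seen, does not use the controls. Bckdk had a log2 fold change of -0.09 ± 0.13 with miR-222, and the mimics differed by -1.79 ± 0.14 (edgeR adjusted p = 4.81e-07). Gm2a (-1.79 ± 0.17), Spop (-1.67 ± 0.19), Glb1 (-1.87 ± 0.21), Fbxw2 (-1.32 ± 0.17), Cox6a1 (-3.88 ± 0.49), Scoc (-2.31 ± 0.37) and Sqor (-2.70 ± 0.30) were also lower with miR-455 than with miR-222 past the threshold. So were Epas1 (-1.77 ± 0.38), Slc16a1 (-2.09 ± 0.26), Lpcat3 (-1.61 ± 0.21) and Kcnh2 (-3.35 ± 0.47), and Nppb was higher (2.50 ± 0.38). For Calr (-0.43 ± 0.24) and Ei24 (-0.36 ± 0.17) a difference between the mimics did not pass.

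The raised genes read differently. With miR-222 Med30 had 2.95 ± 0.43, Galc 2.66 ± 0.41, Plbd1 1.33 ± 0.18, Nudt21 1.54 ± 0.21, Mrpl10 1.67 ± 0.36 and Ndufb9 1.72 ± 0.31, each called and close to its value with miR-455. The difference between the mimics did not pass for them: it was 0.26 ± 0.39 for Med30, -0.01 ± 0.38 for Galc, 0.16 ± 0.18 for Plbd1 and 0.08 ± 0.35 for Mrpl10. Among the same 15 largest rises the difference passed for Wrb alone, a membrane receptor for tail-anchored proteins (1.49 ± 0.29, edgeR adjusted p = 0.00400). Some steep falls were also near in value, such as Gca (-2.99 ± 0.41 and -3.30 ± 0.42), Kdr (-2.72 ± 0.68 and -3.17 ± 0.69) and Ptn (-2.43 ± 0.64 and -2.64 ± 0.65). Among the 15 steepest falls the difference between the mimics did not pass for Gca, Kdr, Sh3bgrl, Asb4, Mlf1 and Scn1a. Their edgeR adjusted p lay between 0.0523 and 0.932. With miR-222 Sh3bgrl had -2.28, Asb4 -1.58, Mlf1 -1.42 and Scn1a -0.26. The difference passed for Ampd3, Lrrc2 and Cux2, besides Cox6a1, Scoc and Sqor.

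**Figure D4:**
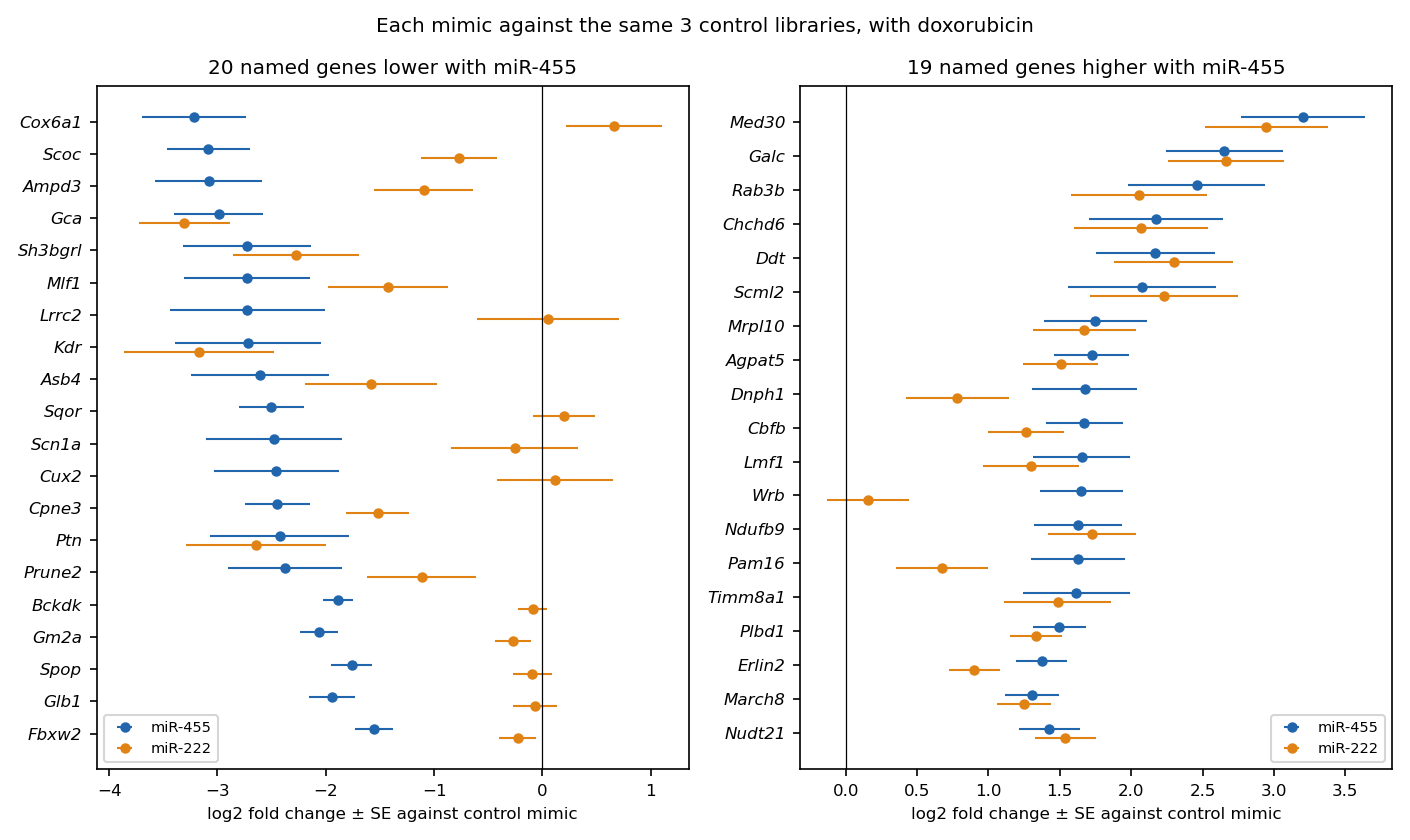
Log2 fold change ± SE against the control mimic, with doxorubicin, for miR-455 (blue) and miR-222 (orange), over the genes with the largest change or smallest p; both use the same 3 control libraries. Bckdk, Gm2a, Spop, Glb1 and Fbxw2 lie near 0 with miR-222, whereas most raised genes have nearly equal values with both mimics.

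Whether miR-455 moved these genes in cells without the drug was read from 6 other libraries. There 675 genes were called (4.72%), 353 higher (2.47%) and 322 lower (2.25%). Of the 94 genes raised under the drug 42 were higher and 0 lower without it, 91 had a value above 0 and the median log2 fold change was 0.80. Of the 264 lowered 68 were lower and 0 higher, 233 were below 0 and the median was -0.60. Over all genes tested 52.9% were above and 46.5% below 0. These 42 and 68 genes are 11.9% of the higher and 21.1% of the lower calls without the drug. Calls without the drug rest heavily on single libraries: it called 16, 1987 and 41 genes without miR-455 replicate 1, 2 and 3, and 108, 201 and 1163 without control replicate 1, 2 and 3, with 2 to 49 of the 94 and 7 to 78 of the 264 called in the same direction. In those fits 85 to 92 of the 94 had a value above 0 and 223 to 244 of the 264 one below 0. Across the 14303 genes, which are not independent replicates, the effects with and without the drug had a Pearson r of 0.283. The difference between both effects passed for 0 genes (0%) by edgeR, with 1523 at an unadjusted p under 0.05, and for 135 by DESeq2.

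Adding miR-455 to miR-222 under the drug gave the same mimic on top of another one, again in 6 other libraries. Cells with both mimics received 5 nM of each, and those with miR-222 received 5 nM in all. A higher total dose of mimic and the added miR-455 cannot be told apart here. There 23 genes were called, all lower (0.161%), and 19 of them were among the 264. Of the 264 lowered by miR-455 alone 190 (72.0%) had a value below 0 in this comparison, beside 52.9% of all genes tested, with a median of -0.30. Of the 94 raised 69 had a value above 0 (median 0.27), beside 47.1% of all genes tested, and 0 were called. The effect on top of miR-222 differed from that alone for 6 genes (0.0419%). It called 11, 5 and 3 genes without miR-222 replicate 1, 2 and 3, and 38, 6 and 5 without replicate 1, 2 and 3 of both mimics, with 2 to 16 of the 264 called lower. Across all genes r was -0.103.

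**Figure D5:**
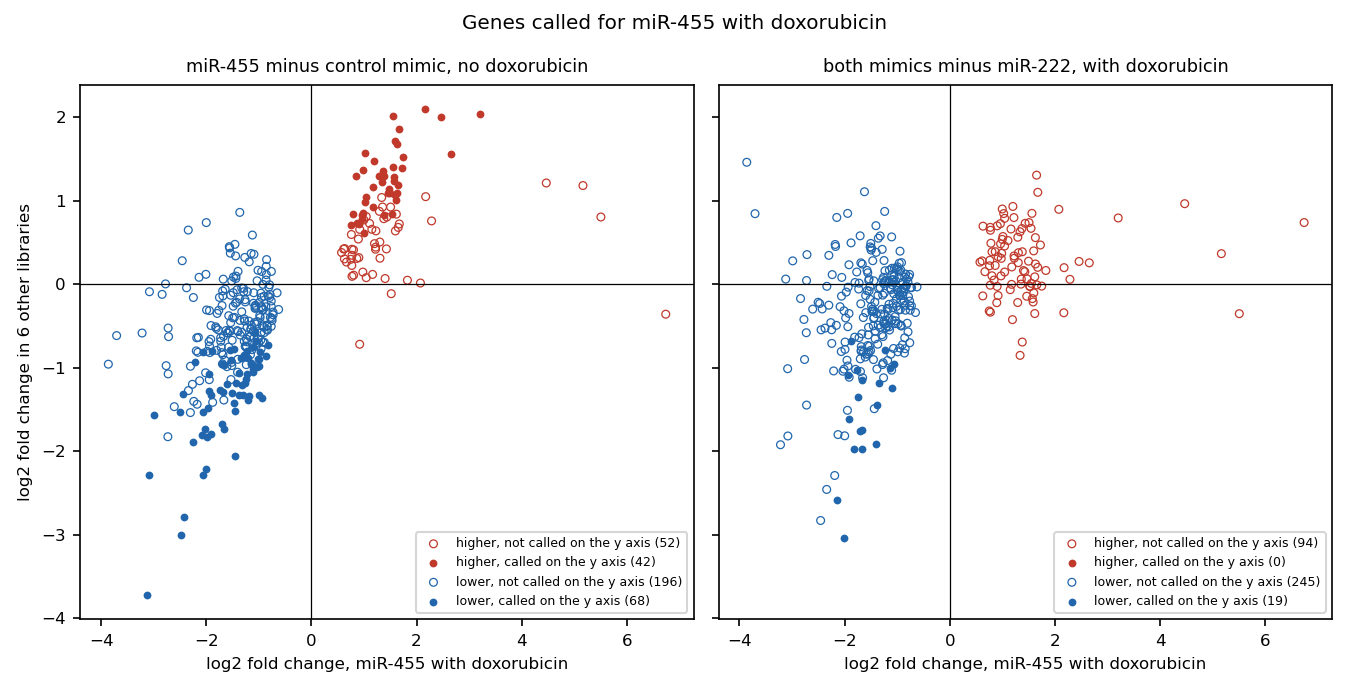
The log2 fold change of the 358 called genes (x axis) against that in 6 libraries of other groups (y axis), which entered the calls only through the pooled spread, without doxorubicin on the left and for miR-455 added to miR-222 on the right; filled points were called there too. On the left 42 raised and 68 lowered genes are filled, on the right 0 and 19.

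Lower in all 3 comparisons were 7 genes: Bckdk, Glb1, Irak1, Rtcb, Ppm1g, Eif1ax and RGD1310352. No gene could be higher in all 3, because 0 were called higher for miR-455 added to miR-222. Irak1, the kinase that relays signals of the interleukin-1 and toll-like receptors, stood under the drug at 65.6, 68.5 and 67.1 CPM with miR-455 and at 182, 247 and 209.8 CPM with the control mimic. Its log2 fold change was -1.67 ± 0.21 with the drug, -0.96 ± 0.21 without it and -1.15 ± 0.21 on top of miR-222 (edgeR adjusted p = 0.000120, 0.0162 and 0.0231). Bckdk had -0.81 ± 0.14 without the drug and -0.68 ± 0.13 on top of miR-222 (edgeR adjusted p = 0.00579 and 0.0427), and Glb1 had -1.08 ± 0.21 and -1.09 ± 0.21 (edgeR adjusted p = 0.0101 and 0.0331). Rtcb, the ligase that joins the exons of spliced transfer RNAs, stood at 18.7, 16.0 and 18.4 CPM against 37.6, 46.9 and 50.3 CPM under the drug and fell in each setting (-1.35, -0.88 and -1.19). Ppm1g, a nuclear protein phosphatase, had -1.11, -0.97 and -1.25, and Eif1ax, a translation initiation factor, -1.06, -0.68 and -0.96. RGD1310352 had -1.23, -0.80 and -0.78, but it fell further with miR-222 alone (-2.08 ± 0.15). Leaving out any library of the main comparison left all 7 called there. In the other comparisons single libraries removed calls of all 7 without the drug (without miR-455 replicate 1) and of all 7 on top of miR-222 (without miR-222 replicate 3), with every log2 fold change still below 0.

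How doxorubicin itself moved the same genes was read from cells given miR-222 with and without the drug, a comparison added after the data were seen that shares no library with the main one. Of the 264 genes lowered by miR-455, 82 (31.1%) were higher and 25 (9.47%) lower with the drug, beside 7.76% and 6.87% of all genes tested. Of the 94 raised, 21 (22.3%) were higher and 7 (7.45%) lower with it. The median of the mean CPM in the main comparison was 50.8 for the lowered and 40.0 for the raised genes, beside 12.9 for all tested. Genes with more counts are easier to call, so the shares over all genes are not a like comparison.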

How the data were processed

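PolyA RNA of 24 libraries was sequenced, of which the effect of miR-455 under doxorubicin uses 6. The authors deposited 1 table of expected counts for 21767 gene symbols. The submitters' processing notes name Salmon, DESeq2 and the build Rnor_6.0, without versions or roles. Values that were not whole (38406, or 7.35%) were rounded.

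The rounded counts were tested in R 4.3.3 with edgeR 4.0.16. Genes were filtered with filterByExpr, which left 14303, and libraries were scaled by TMM. One fit with a mean for each of the 8 groups used all 24 libraries, so the spread is pooled over groups that differ in it. Comparisons were quasi-likelihood F tests with Benjamini-Hochberg adjustment, and a gene was called at an adjusted p under 0.05. SE is the size of a log2 fold change over the square root of its F. The counting interval of a ratio is the exact binomial one and covers counting error only. The test was also run on simulated counts, drawn with the same spread in every library for a given gene. That run cannot show how the test behaves where groups differ in spread, as they do here.

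The members and the gene lists were chosen with earlier results of these data known, so lists are described by counts and medians alone. Named genes followed a rule: per direction the 15 largest changes among genes with a symbol, a mean of 5 CPM or more in 1 group and no overlap of libraries, and the 5 smallest p; up to 4 members a list; all reported targets; genes called in all 3 comparisons that add miR-455; up to 4 per direction for a difference between effects; and Nppa, Nppb, Cdkn1a, Mdm2, Myh6, Myh7 and Ei24. Members of families, and Col27a1, were named after their values were seen. Alternatives were DESeq2 size factors, the DESeq2 1.42.0 test, no filter, 1 CPM in 3 libraries as the filter, fitting the compared groups alone, a replicate block, no mitochondrial transcripts, and leaving out each library.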

Additional observations from a re-analysis of the deposited data

Results flagged for a closer look

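For 6 genes the effect of miR-455 on top of miR-222 differed from its effect alone, both under doxorubicin, by an edgeR interaction test over all genes (0.0419% of the genes tested). This means that the log2 fold change between both mimics and miR-222 was set against that between miR-455 and the control mimic. The total mimic dose differs within the first of these comparisons and not within the second, so its part cannot be told apart. Bckdk fell in both settings, by less on top of miR-222, a difference of 1.20 ± 0.19 (edgeR adjusted p = 0.0173), and stood at 136, 143 and 141 CPM with both mimics against 66.8, 64.8 and 62.3 CPM with miR-455 alone. Gca fell with miR-455 alone and had 0.28 on top of miR-222, a difference of 3.27 ± 0.56 (edgeR adjusted p = 0.0288). Sqor had -0.22 on top of miR-222, a difference of 2.29 ± 0.41 (edgeR adjusted p = 0.0414). Tmem183a, which fell by 1.44 on the log2 scale with miR-455 alone, had 0.04 on top, a difference of 1.48 ± 0.25 (edgeR adjusted p = 0.0288). Vnn1, a pantetheinase, fell by 1.92 alone and had 0.23 on top, a difference of 2.15 ± 0.33 (edgeR adjusted p = 0.0173). Cmas, an enzyme that activates sialic acid, went the other way, with 0.05 alone and -1.84 on top, a difference of -1.89 ± 0.30 (edgeR adjusted p = 0.0173). Against the same control libraries, miR-222 alone had already lowered Gca (-3.30 ± 0.42) and Vnn1 (-1.69 ± 0.24), both called. Bckdk (-0.09 ± 0.13), Sqor (0.20 ± 0.28) and Tmem183a (-0.48 ± 0.18) were not called with miR-222 alone. Without replicate 1 of both mimics 24 genes differed, and without any 1 library of miR-455 alone 0 did.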

How the results depend on the processing

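The count of 358 for miR-455 with doxorubicin (94 higher, 264 lower) was 364 with DESeq2 size factors, 301 without a filter, 368 with 1 CPM in 3 libraries and 357 without mitochondrial transcripts. It was 654 (172 and 482) by the DESeq2 test, 144 (27 and 117) when only the 6 libraries were fitted, and 145 to 320 (47 to 86 and 98 to 234) when 1 library was left out. With the replicate block it was 292 (83 and 209). Same-numbered libraries of both groups deviated with r of 0.0293, -0.0279 and 0.0472, and differently numbered ones with r of -0.0503 to 0.0311. With 3 libraries a group such values cannot show whether libraries were made in pairs, and the labels do not say. Under the block miR-455 without doxorubicin had 377 calls, miR-455 added to miR-222 had 8, the difference between its effects on top of miR-222 and alone had 1, and miR-222 with doxorubicin had 431.

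The 675 calls without doxorubicin became 1918 by DESeq2, 2 in a fit of those 6 libraries and 16 to 1987 with 1 library left out. The 23 calls of miR-455 added to miR-222 became 15 without a filter, 148 by DESeq2, 0 in a fit of those libraries and 3 to 38 with 1 library left out. The difference with minus without doxorubicin, 0 by edgeR, was 135 by DESeq2 and 0 to 56 with 1 library left out. The 6 genes that differed on top of miR-222 became 0 without a filter, 13 with 1 CPM in 3 libraries, 13 without mitochondrial transcripts, 189 by DESeq2, 0 in a fit of only those groups and 0 to 24 with 1 library left out. The 565 calls of miR-222 with doxorubicin became 1047 by DESeq2, 76 in a fit of those libraries and 263 to 532 with 1 left out, and the 3936 of doxorubicin with the control mimic 1437 and 2892 to 4297. The cause of these moves was not tested. A fit of fewer libraries has fewer degrees of freedom.

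Of the named genes none called for miR-455 with doxorubicin changed sign under any of these settings. Many lost their call, however. Of 70 such genes 35 were not called when only the 6 libraries were fitted. Without any 1 miR-455 library 29 were not called, and without 1 control library 10 to 19. Genes that were not called and changed sign when 1 library was left out had log2 fold changes of -0.0595 to 0.20 (Cmas), -0.16 to 0.16 (Hdac8), -0.94 to 0.38 (Ago3), -1.26 to 0.018 (Mt-co1), -2.18 to 0.029 (Mt-atp6), -1.32 to 0.25 (Mt-nd6), -0.61 to 0.055 (Rpl11), -0.48 to 0.027 (Rps4x), -0.29 to 0.28 (Runx1t1), -0.20 to 1.44 (Mmp9), -0.39 to 0.13 (Flt1), -1.17 to 0.081 (Cpeb1) and -0.33 to 0.15 (Cdkn1a).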
